A study of Mus musculus with 11 samples.

Results

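The genes described here are the nuclear-encoded genes of oxidative phosphorylation, read in single-nucleus RNA counts of mouse trigeminal ganglion neurons. They were chosen by symbol alone: a name that starts with Nduf followed by a, b, c, s or v, with Uqcr, with Cox and a digit from 4 to 8, or with Atp5, or the names Sdha, Sdhb, Sdhc and Sdhd. Of 96 such names in the tables, 7 contained -ps and were left out, and 2 had fewer than 50 unique molecular identifiers (UMIs, the counted RNA molecules) over the 7 tables made with the 10x method. This left 87 genes of the 24243 symbols listed. Ndufa4l2 with 30 UMIs and Cox8b with 42 fell just outside, while Cox6a2 with 58, Cox6b2 with 99 and Cox4i2 with 134 fell just inside. The 87 genes comprise 35 subunits of complex I (7 core and 28 accessory), the 4 subunits of complex II, 8 of complex III, 15 of complex IV, 15 of complex V and 10 assembly factors and related genes. Ndufa4 bears a complex I name but its protein is a subunit of complex IV and is counted there. All 87 were listed in each 10x table and 85 in the Drop-seq table, and no listed member stood at 0 in a whole library.

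Complex I (NADH dehydrogenase) and complex II (succinate dehydrogenase) pass electrons from NADH and succinate to ubiquinone. Complex III (cytochrome bc1) hands them to cytochrome c, complex IV (cytochrome c oxidase) passes them to oxygen, and complex V (ATP synthase) uses the proton gradient built by complexes I, III and IV to make ATP. Complex II is encoded wholly in the nucleus and is also an enzyme of the citric acid cycle, whereas the other complexes carry a few subunits encoded in mitochondrial DNA. Sensory neurons supply very long axons and depend on this pathway for firing and axonal transport. Large sensory neurons carry myelinated axons and the heavy neurofilament gene Nefh, while many small neurons are nociceptors that carry the sodium channel gene Scn10a.

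Minor skin injury of 2 kinds, nerve transection and uninjured controls were represented. Facial injury (skin cuts on cheeks and forehead of C57BL mice, sampled after 2 days) and Scratch lesions (mice that had scratched their faces chronically, of a mixed FVBN/C57BL/129 background) each gave 1 10x library and are called minor injury here. By the study's methods the scratching mice were double transgenic, with Fos-tTA driving an active Gnaq mutant and mCherry from a tetO promoter, so strain, transgene and scratching cannot be told apart in that library. Transection of branches of the infraorbital nerve in C57BL mice (IOT), a spared nerve injury that leaves other branches whole, gave 1 10x library at each of days 2, 7, 21 and 75. The controls were wild-type C57BL mice without injury, with 1 10x library and 4 Drop-seq samples that share 1 table and were read as 1 library. All mice were over 6 weeks old, ganglia of several mice of both sexes were pooled per library, and nuclei were enriched with an antibody to the neuronal protein NeuN. Tests below therefore measure the spread between libraries. Each injury and time has a single library, so library and condition cannot be told apart.

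The 8 tables held 40359 nuclei, between 3178 and 8660 per library, with median depths of 1747 to 4178.5 UMIs per nucleus. Libraries made with 10x shared between 16 and 92 nucleus barcodes in each of 21 pairs. Nuclei were called injured when they fell in 1 of the 2 clusters, of 28, whose injury markers (Atf3, Sox11, Sprr1a and others) stood at least 4-fold above the rest, and both had 10 of 10 such markers. This gave 132 injured nuclei after Facial injury and 211 after Scratch lesions, and 577, 506, 249 and 95 after IOT at days 2, 7, 21 and 75, against 4 in Control 10x and 9 in Control Drop-seq. Uninjured nuclei with at least 1 Nefh UMI and no Scn10a UMI were called large, and those with Scn10a and no Nefh small. The names stand for these 2 genes and not for a measured size: Trpm8, a gene of small cold-sensing neurons, was at 181 CPM in large against 35.6 CPM in small nuclei of Control 10x. The oxidative phosphorylation genes were kept out of the clustering, and neither Nefh, Scn10a nor an injury marker is one of them. Their RNA made up 1.21% of all UMIs after both minor injuries, 0.464% to 0.737% in the 4 IOT libraries, 0.799% in Control 10x and 0.92% in Control Drop-seq.

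In Control 10x the levels of the members spanned a wide range, and 10 of the 87 genes took 33.5% of their UMIs. Levels are given as CPM, the UMIs of a gene per 1000000 UMIs of the same nuclei. The highest were those of complex IV genes, led by Cox8a with 461.8 CPM, Cox6a1 with 381.5 CPM and Ndufa4 with 368.2 CPM, all small subunits on the outside of the catalytic core. Cox6b1 (262.2 CPM), Cox5a (226.8 CPM) and Cox6c (224.9 CPM) belong to the same complex. The list ended with Atp5b, the catalytic beta subunit of ATP synthase, at 216.6 CPM, and 3 complex III genes, Uqcrh (183 CPM, the hinge protein), Uqcrq (177 CPM) and Uqcr11 (174.4 CPM). Introns were counted, so long genes collect more reads. Per kilobase of annotated gene Cox8a again came first with 187 CPM and Cox6a1 next with 114 CPM, followed by Cox7c (64.1 CPM), Uqcrq (60.8 CPM) and Cox5b (60.4 CPM). Most members are short genes: in the GENCODE vM21 annotation of the mm10 mouse genome the 86 that could be matched spanned 0.953 to 243 kb, with a median of 7.76 kb.

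Several complex IV and V subunits exist as alternative isoforms encoded by separate genes, and 1 form dominated in most families. Cox6a2, the heart and skeletal muscle form, gave at most 0.122% of the Cox6a UMIs in any 10x library (28 of 22930 after Facial injury), and Cox6a1 gave the rest. Cox6b2, known from testis, gave 0.0883% to 0.726% of Cox6b in the 10x libraries, and Cox7a1, another heart and muscle form, gave 0.514% to 1.14% of the 2 genes Cox7a1 and Cox7a2. Cox7b2 reached 0.995% to 2.95% of Cox7b. In ATP synthase, the 3 genes for the identical c subunit of the membrane rotor behaved differently. Atp5g1 gave 62.9% of Atp5g UMIs after Facial injury and 56.8% after Scratch lesions, 46.5%, 47.4%, 60.2% and 42.0% after IOT at days 2, 7, 21 and 75, 52.2% in Control 10x and 43.3% in Control Drop-seq. Atp5g3 made up most of the remainder and Atp5g2 between 0.734% and 3.97%. The share of Atp5g1 at IOT day 21 lay between the shares of the 2 minor injuries, so injury classes overlapped. Counting error was small beside these gaps, with an exact 95% binomial interval of 61.9% to 63.9% for Atp5g1 after Facial injury.

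**Figure D1:**
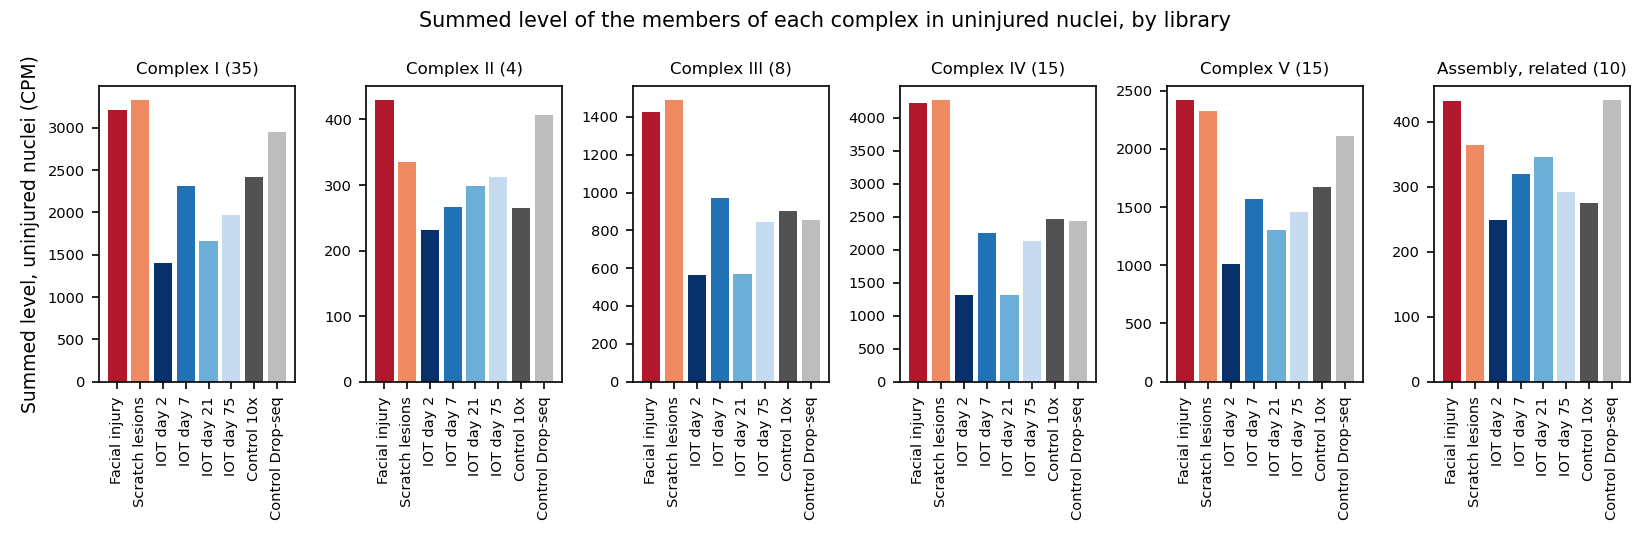
Summed level of the members of each complex in uninjured nuclei, in CPM, for every library (bars: Facial injury, Scratch lesions, IOT day 2, 7, 21 and 75, Control 10x and Control Drop-seq). Both minor injury bars stand above all 4 IOT bars in each complex, and complex IV shows the widest gap, with 4213 and 4264 CPM against 1314 to 2256 CPM.

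Large nuclei held more oxidative phosphorylation RNA than small nuclei in every library. The summed level of all members was 12910 CPM in large against 10260 CPM in small nuclei after Facial injury and 13730 against 10200 CPM after Scratch lesions. After IOT the large nuclei had 5257, 10270, 6026 and 7332 CPM at days 2, 7, 21 and 75, against 3913, 6058, 4255 and 5656 CPM in small nuclei. Controls had 9412 CPM in large against 5863 CPM in small nuclei by 10x and 10420 against 6822 CPM by Drop-seq. The ratio of large over small thus lay between 1.26 and 1.7 in the 8 libraries, although the levels themselves differed more between libraries than between sizes.

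The difference between sizes was spread over nearly the whole list. With size compared within each of the 7 10x libraries (edgeR quasi-likelihood test, Benjamini-Hochberg adjusted p under 0.05), 73 of the 82 members tested were higher in large nuclei and 0 were lower, against 25.7% higher and 25.1% lower of all 12721 genes tested. The median log2 difference was 0.44 over the members and 0.00 over all genes. Complex I had 30 of 35 tested members higher, complex II 4 of 4, complex III 8 of 8, complex IV 10 of 10, complex V 14 of 15 and the assembly factors and related genes 7 of 10. Without any test, 70 of the 87 genes stood higher in large nuclei in all 7 libraries, a count not given here for all genes. DESeq2 called 70 members higher and 0 lower, against 2747 higher and 2782 lower of all 12721 genes. The 5 members not tested for low counts were Cox4i2, Cox6a2, Cox6b2, Cox7a1 and Cox7b2.

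The largest difference was that of Cox5a, which encodes a subunit of cytochrome c oxidase. Cox5a had 390 and 448 CPM in large nuclei after Facial injury and Scratch lesions, 119, 244, 180 and 173 CPM after IOT at days 2, 7, 21 and 75 and 298 CPM in Control 10x, against 256 and 272, 79.1, 103, 96.2 and 106, and 130 CPM in small nuclei. Its level was higher in large nuclei in each library, and the log2 difference was 0.81 ± 0.078 (SE, adjusted p = 1.91e-07, edgeR). Ndufa12, an accessory subunit of complex I, followed with 0.76 ± 0.076 (adjusted p = 2.65e-07). Its large nuclei had 121 and 105 CPM after the minor injuries, 50.9, 77.5, 65.6 and 69.5 CPM after IOT and 99.7 CPM in Control 10x, against 83.6 and 64.2, 30.4, 40, 36.9 and 42.5, and 44.2 CPM in small nuclei. Control 10x and IOT day 7 had the highest ratios of large over small of the 7 libraries for both genes.

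Ndufa5, an accessory subunit of the complex I arm that faces the matrix, had 102 and 147 CPM in large nuclei after Facial injury and Scratch lesions, 86.7, 272, 45.8 and 93.6 CPM after IOT at days 2, 7, 21 and 75 and 187 CPM in Control 10x. Small nuclei had 79.7 and 97.1, 49.6, 108, 25.9 and 66.2, and 99.4 CPM (log2 difference 0.72 ± 0.09, adjusted p = 3.58e-06, edgeR). The libraries differed in Ndufa5 more than the sizes did, yet within each library large nuclei came out higher. The complex I assembly factors Ndufaf5 (0.76) and Ndufaf2 (0.70) rose about as much on the log2 scale, as did Ndufa6 (0.63) and Ndufaf1 (0.61). Among ATP synthase genes Atp5g1 rose by 0.66 ± 0.074, with 275 and 352 CPM in large nuclei after the minor injuries, 92.5, 153, 142 and 128 CPM after IOT and 191 CPM in Control 10x, against 193 and 249, 68.4, 84.2, 73.7 and 80, and 94.3 CPM in small nuclei. Atp5j, coupling factor 6 of the stalk, rose by 0.64, and Cox7b, a small complex IV subunit, by 0.63. The 4 succinate dehydrogenase genes rose by 0.41 (Sdha, the flavoprotein), 0.19 (Sdhb, the iron-sulfur protein), 0.43 (Sdhc) and 0.49 (Sdhd, which with Sdhc anchors the complex in the membrane). An exception in direction was the complex I assembly factor Ndufaf7, lower in large nuclei in 6 of 7 libraries with a median log2 ratio of -0.12, which did not pass the test.

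**Figure D2:**
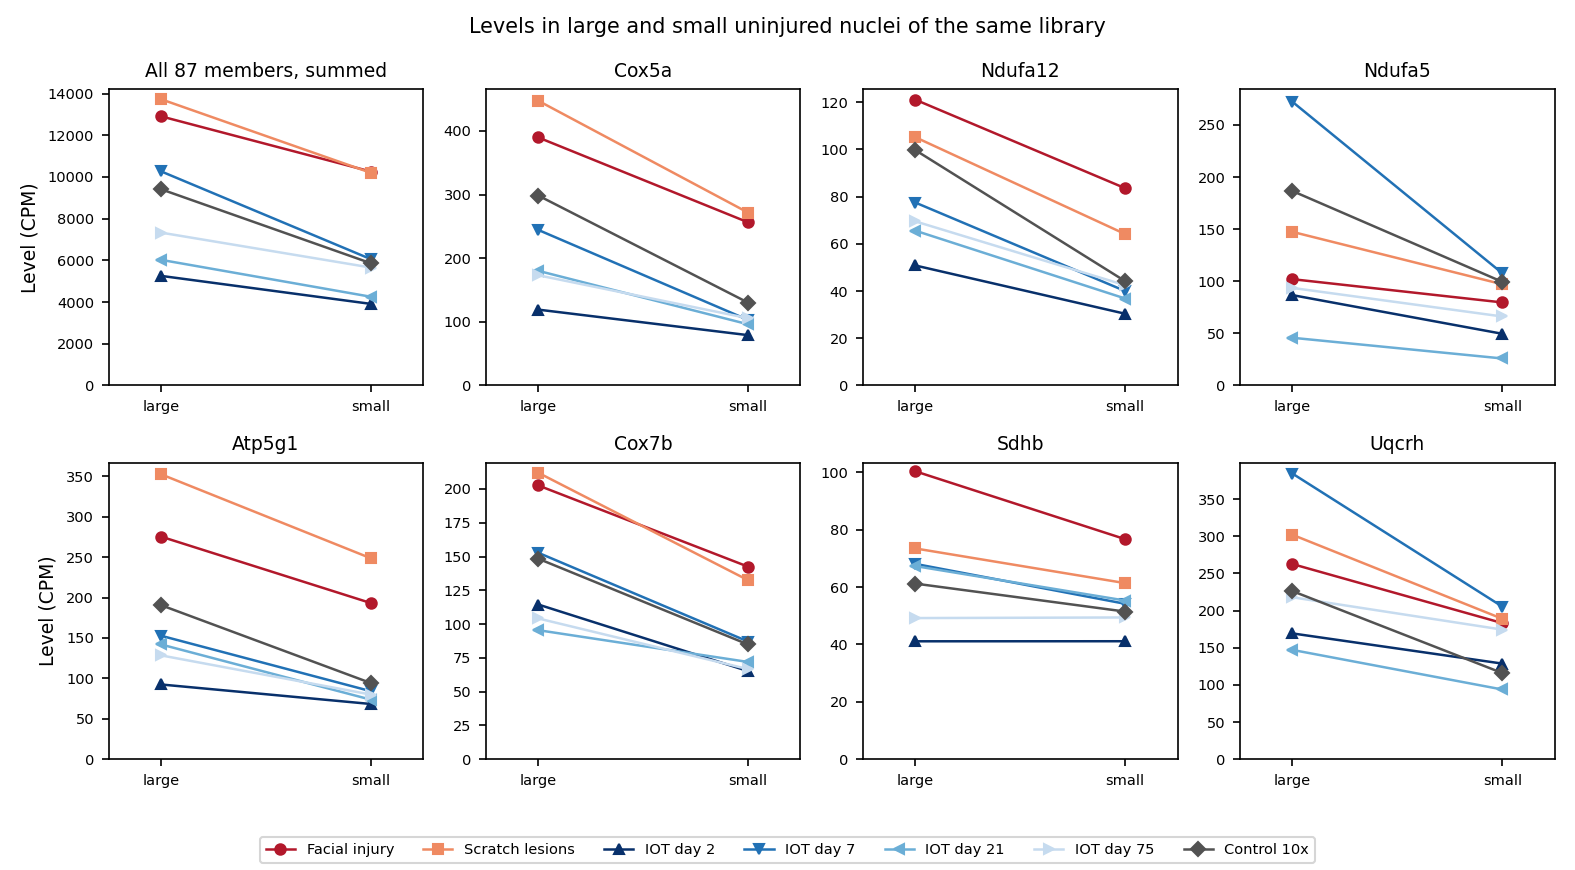
Levels in large (left) and small (right) uninjured nuclei of the 7 10x libraries, in CPM on a linear axis from 0, for the sum of all members and for Cox5a, Ndufa12, Ndufa5, Atp5g1, Cox7b, Sdhb and Uqcrh; a line joins the 2 sizes of 1 library. Lines run downward from large to small in nearly all panels, steeply for Cox5a (298 CPM against 130 CPM in Control 10x) and hardly at all for Sdhb.

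Genes of neighbouring pathways gave a mixed picture between the sizes. All 9 mitochondrially encoded genes tested were higher in large nuclei, with a median log2 difference of 0.96, as were 11 of 13 citric acid cycle genes (median 0.42) and 7 of 9 genes for cytochrome c and mitochondrial carriers (0.39). Of 33 further assembly factors 15 were higher and 1 lower. Glycolysis was split, with 7 of 15 genes higher and 2 lower: the lactate dehydrogenase gene Ldhb rose by 1.45 and the pyruvate kinase gene Pkm by 0.76, while Ldha fell by 0.42 and Eno1 by 0.33 on the log2 scale. Regulators of mitochondrial biogenesis were split too, with 5 of 11 higher and 3 lower. The coactivator gene Ppargc1a rose by 1.41 and the nuclear receptor gene Esrra by 0.94, whereas the stress regulator Nfe2l2 fell by 0.63 and Nrf1, a transcription factor for respiratory chain genes, by 0.24. Ribosomal protein genes, which like the members are short and abundant, had 4 of 65 higher and 13 lower with a median of -0.06.

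Other measures that moved with size were depth, mitochondrial RNA and RNA of other cells. Large nuclei had the higher median depth in every library, for example 1962.5 against 1593 UMIs after Facial injury and 3501 against 2845.5 UMIs in Control 10x. Restricting both classes to nuclei of 2000 to 6000 UMIs left 68 members called, against 2705 higher and 2604 lower of all 12025 genes. Using only nuclei low in mitochondrially encoded RNA left a median of 0.26 and 45 called, against 1961 higher and 2252 lower of 10877. Markers of satellite glia and of Schwann cells ran the other way, with 4 of 10 lower and 1 higher for satellite glia and 6 of 10 lower for Schwann cells in large nuclei. Gene length moved little with size: other protein-coding genes spanning under 5 kb had a median log2 difference of 0.06 against 0.44 for the 24 members of that length. Without the library as a block 10 members were called, against 1368 higher and 1403 lower of all 12721 genes.

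Injured neurons had less oxidative phosphorylation RNA than the uninjured neurons of the same libraries. The summed level in injured nuclei after IOT was 3754, 5214, 5205 and 6692 CPM at days 2, 7, 21 and 75, against 4774, 7693, 5503 and 7002 CPM in uninjured nuclei, ratios of 0.786, 0.678, 0.946 and 0.956. The gap was wide at days 2 and 7 and narrow at days 21 and 75. After minor injury the injured nuclei had 11340 CPM against 12130 CPM (Facial injury) and 10470 CPM against 12110 CPM (Scratch lesions), ratios of 0.935 and 0.865. Since the injured state was read within each library, these ratios do not rest on differences between libraries. Read apart, the injured clusters differed after IOT. The cluster with more Mmp16 (Mmp16-high) had 3567, 4531, 5026 and 6552 CPM, below the uninjured nuclei each time. The cluster with more Sprr1a (Sprr1a-high) had 4648, 8539, 6612 and 8164 CPM, near the uninjured nuclei at day 2 and above them later. Its day 75 value came from 8 nuclei. After both minor injuries each cluster lay below the uninjured nuclei. Injured clusters mix several neuron types, which were not matched between states, and their part in the result was not tested.

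After IOT 15 of the 84 members tested were lower in injured nuclei and 1 was higher (edgeR quasi-likelihood test with library as a block, adjusted p under 0.05), against 12.3% lower and 14.7% higher of all 14159 genes tested. The 2000 variable genes used for clustering were not tested here, nor in the comparisons between injury classes. The median log2 difference was -0.18 over the members and -0.03 over all genes, and 71 members had a negative value. Of the 15 that fell, 10 belong to complex I, which had 10 of 35 lower. Complexes II, III and V had 1 lower each and complex IV 2 lower and 1 higher, while none of the 10 assembly factors and related genes passed. As a share of the members tested this was not far from the share of all genes. Counts also depended on single libraries: 6 members were called without IOT day 2, against 1435 higher and 1269 lower of all 13505 genes. Without IOT day 7, 5 were called, against 1484 higher and 1296 lower of 14730. DESeq2 called 5, against 1586 higher and 958 lower of 14159. Injured nuclei set by UMIs of at least 3 of 10 injury markers, in place of clusters, gave 0 calls and a median of 0.02. All 14471 genes then had 793 higher and 475 lower. That rule also took in 542 nuclei of Control 10x, against 4 by the clusters. It favoured deep nuclei, with medians of 4509.5 UMIs in injured and 2944 UMIs in uninjured nuclei at IOT day 2.

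Ndufb8 and Ndufb3, both accessory subunits of complex I, had the largest declines past the test. Ndufb3 had 37.9, 50.8, 61.4 and 64.8 CPM in injured nuclei at days 2, 7, 21 and 75 after IOT, against 74.4, 116, 82.5 and 93.7 CPM in uninjured nuclei (log2 difference -0.70 ± 0.124, SE, adjusted p = 8.94e-07, edgeR). It was lower in all 4 libraries, most at days 2 and 7. After minor injury its values were 112 and 112 CPM in injured nuclei against 150 and 165 CPM in uninjured nuclei, lower in both libraries too. Ndufb8 fell by 0.82 ± 0.322 on the log2 scale (adjusted p = 0.044), but from few molecules, with 2.71, 3.38, 4.31 and 9.82 CPM in injured nuclei against 4.67, 15, 4.54 and 11.8 CPM in uninjured nuclei. Its gap was widest at day 7, while at days 2, 21 and 75 so few molecules could not tell it from counting error. The call was lost in 10 of 18 alternatives.

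Ndufb11 had 17, 28.8, 29.1 and 31.4 CPM in injured nuclei after IOT against 26.6, 55.6, 37.5 and 47.6 CPM in uninjured nuclei, and fell by 0.54 ± 0.155 (adjusted p = 0.00381, edgeR). Ndufb7 had 37.1, 49.1, 43.1 and 78.6 CPM against 53.3, 104, 52.5 and 97.4 CPM, and fell by 0.47 ± 0.126 (adjusted p = 0.00198). Both were lower in each IOT library. Further complex I genes that fell after IOT included Ndufv2, a core subunit that carries an iron-sulfur cluster, and the accessory subunits Ndufc2, Ndufa5, Ndufa11 and Ndufb9, by 0.35 to 0.42 on the log2 scale.

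Outside complex I 5 members fell, by 0.26 to 0.46 on the log2 scale. Sdha, the catalytic subunit of complex II, had 64.6, 49.9, 107 and 155 CPM in injured nuclei after IOT at days 2, 7, 21 and 75 against 119, 93.9, 140 and 157 CPM in uninjured nuclei (log2 difference -0.46 ± 0.113, adjusted p = 0.000535, edgeR). The state gap of Sdha was widest at days 2 and 7 and almost closed at day 75, and after minor injury the injured nuclei had 186 and 109 CPM against 223 and 163 CPM. Uqcr11 of complex III fell by 0.38, Atp5a1, the alpha subunit of ATP synthase, by 0.36, and Cox5b and Cox8a of complex IV by 0.35 and 0.26. For Atp5a1 this was 68, 102, 119 and 155 CPM in injured against 106, 151, 151 and 188 CPM in uninjured nuclei, lower in every IOT library. Cox8a had 218, 276, 303 and 420 CPM against 308, 496, 303 and 436 CPM, so days 21 and 75 hardly differed.

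Cox4i2, an isoform of complex IV subunit 4 known from lung and from low oxygen, was the exception that rose, by 1.53 ± 0.594 (adjusted p = 0.0428, edgeR). Its call rests on very few molecules, 11, 2, 1 and 2 UMIs in injured nuclei at days 2, 7, 21 and 75 (4.25, 1.69, 1.08 and 3.93 CPM), against 1.4, 1.26, 0.468 and 0.885 CPM in uninjured nuclei. In the injured nuclei of both minor injury libraries Cox4i2 was at 0.

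After minor injury 0 of 84 members passed in either direction in edgeR's quasi-likelihood test, against 4.22% higher and 3.93% lower of all genes. At an unadjusted p under 0.05 there were 0 higher and 7 lower, and DESeq2 called 0. The median log2 difference was -0.20, close to that after IOT, against -0.09 over all genes. The test of the difference between the 2 injured effects called 0 members in either direction as well, against 0.48% higher and 0.805% lower of all genes, with 0 at an unadjusted p under 0.05 in either direction, 0 by DESeq2 and a median difference of -0.04. A difference between the injured effects of minor injury and of IOT was thus not detected among the members. The minor injury side rested on 132 and 211 injured nuclei.

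**Figure D3:**
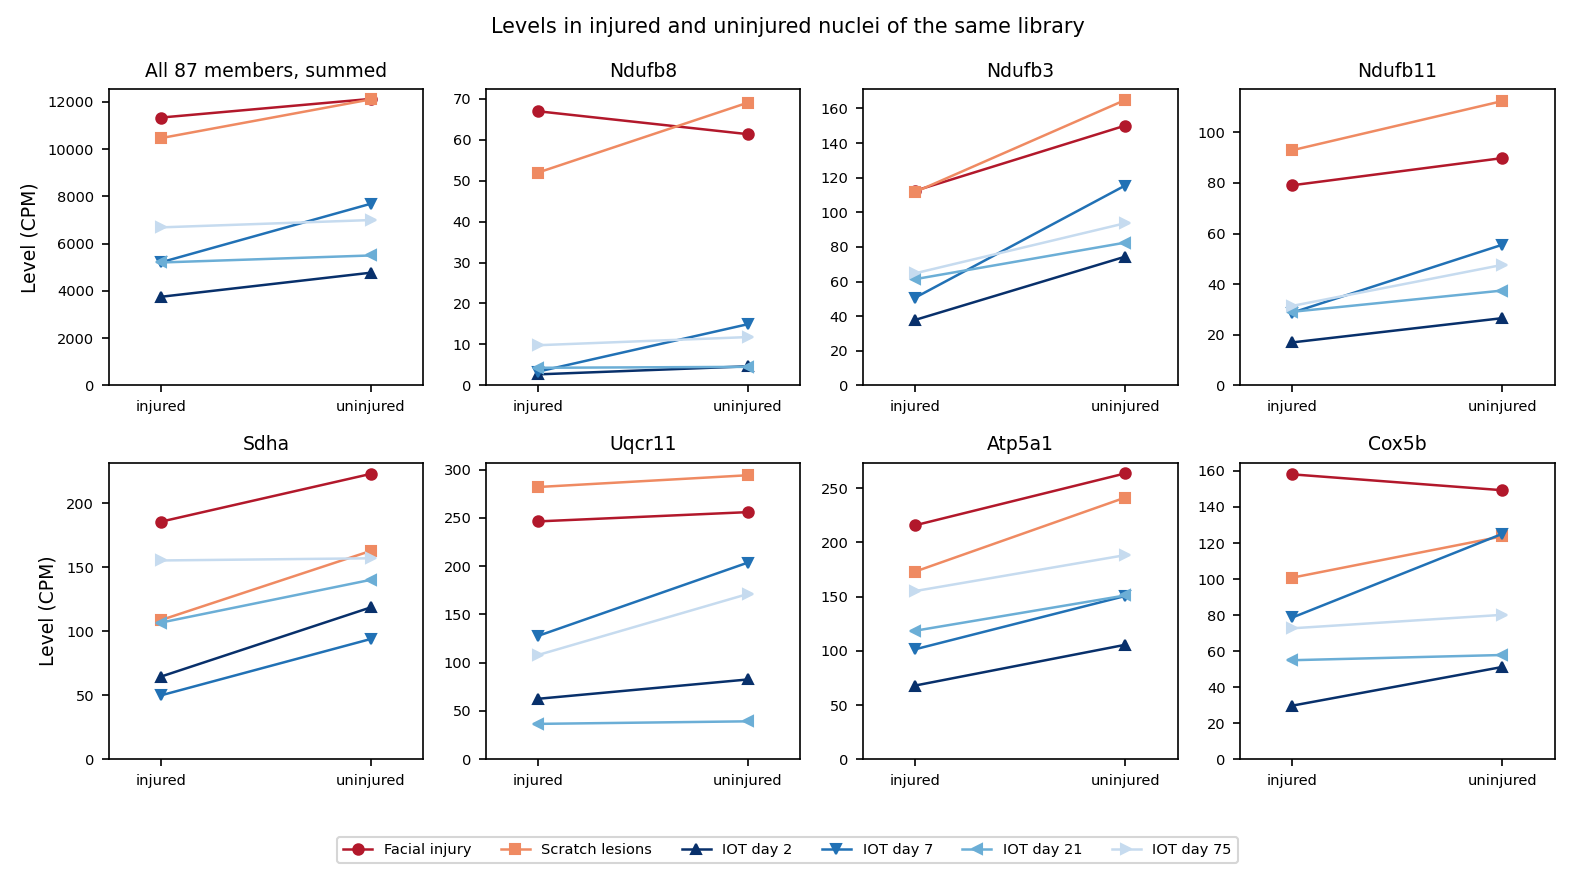
Levels in injured (left) and uninjured (right) nuclei of the 6 injury libraries, in CPM on a linear axis from 0, for the sum of all members and for Ndufb8, Ndufb3, Ndufb11, Sdha, Uqcr11, Atp5a1 and Cox5b; a line joins the 2 states of 1 library. Ndufb3 and Atp5a1 are lower in injured nuclei in every library, and the 2 minor injury libraries lie apart from the 4 IOT libraries in both states for Ndufb8, whereas the injured values of Sdha overlap.

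Genes of other energy pathways were lower in injured nuclei after IOT in part. Of 12 mitochondrially encoded genes tested 6 were lower in injured nuclei (median -0.35), among them mt-Nd5 by 0.66 and mt-Nd2 by 0.55 on the log2 scale, both complex I subunits. Of 17 glycolysis genes 7 were lower, led by Aldoc (aldolase C), which fell by 0.92, and Pfkl (phosphofructokinase), which fell by 0.80. Of 9 carrier genes 3 were lower, including the ADP and ATP exchangers Slc25a4 (by 0.48) and Slc25a5 (by 0.54). Of 33 further assembly factors 5 fell and 3 rose, and Ecsit, a complex I assembly factor that also acts in innate immune signalling, rose by 2.18 (SE 0.155). After minor injury Ppargc1a fell by 1.04 and Ppargc1b by 1.70. After IOT the citric acid cycle had 2 of 13 lower and 1 higher, regulators of mitochondrial biogenesis 1 of 11 lower and 1 higher, and ribosomal protein genes 1 of 71 lower with a median of -0.10.

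Markers of other cells and of neuron types moved with the injured state. Satellite glia markers summed to 456 to 686 CPM in injured nuclei after IOT, against 377 to 791 CPM in uninjured nuclei, with 2 of 10 genes higher and none lower, and at 1712 CPM in injured against 971 CPM in uninjured nuclei after Facial injury and 787 against 702 CPM after Scratch lesions. After IOT 1 of 10 Schwann cell markers was higher. General neuron markers had 6 of 7 lower (median log2 difference -0.74), large neuron markers 6 of 8 lower and 1 higher (-0.51) and mRNAs typical of small neurons 5 of 6 lower (-1.78). Using nuclei low in glial UMIs left 11 members called after IOT, against 1569 higher and 1342 lower of all 12727 genes tested. Using nuclei low in mitochondrially encoded RNA left 6, against 1275 higher and 1066 lower of 12209. Restriction to 2000 to 6000 UMIs left 6, against 1593 higher and 1307 lower of 12655. Leaving out cluster 20, the uninjured cluster with the highest member level, left 9, against 2022 higher and 1698 lower of 14136. The Mmp16-high cluster alone gave 20 calls, against 1969 higher and 1712 lower of 14088. The Sprr1a-high cluster alone gave 3, against 453 higher and 1065 lower of 13564. Their part in the result was not tested further.

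The summed level of the members was higher after minor injury than after IOT. In uninjured nuclei they summed to 12130 CPM after Facial injury and 12110 CPM after Scratch lesions, against 4774, 7693, 5503 and 7002 CPM after IOT at days 2, 7, 21 and 75. Control 10x had 7991 CPM and Control Drop-seq 9195 CPM. The minor injury mean was 1.94 times the IOT mean, and both minor injury libraries stood above every IOT and control library. Complex IV had the highest ratio (2.42), followed by complex III (1.98), complexes I and V (1.78 each), complex II (1.38) and the assembly factors and related genes (1.32). In injured nuclei the order was alike, with 11340 and 10470 CPM against 3754, 5214, 5205 and 6692 CPM, a ratio of 2.09, although the sums of complex II and of the assembly factors and related genes then overlapped between classes.

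Of all 87 members, 17 were higher in uninjured nuclei after minor injury than after IOT and 0 were lower (edgeR quasi-likelihood test over 7 libraries, adjusted p under 0.05), against 1.63% higher and 0.872% lower of all 15481 genes tested. At an unadjusted p under 0.05 there were 49 higher and 1 lower. DESeq2 called 33 higher, against 631 higher and 982 lower of all 15481 genes. The median log2 difference was 0.77 over the members and 0.01 over all genes, and 79 of the 87 values were positive. The CPM of 51 members lay above all 4 IOT libraries in both minor injury libraries, against 17.1% of all genes, and those of 2 members lay below all 4, against 14.9% of all genes. The genes that rose comprised 9 of 35 in complex I, 3 of 8 in complex III, 3 of 15 in complex IV and 2 of 15 in complex V. None of the 4 complex II genes and none of the 10 assembly factors and related genes passed.

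With 2 libraries against 4 these calls were fragile. Leaving out Facial injury, Scratch lesions or IOT day 2 left 0 calls each, although the median log2 difference of the members was then 0.71, 0.73 and 0.61. Calls among all genes nearly vanished too, with 7, 3 and 5 higher, so a count of 0 is not particular to the members. Without IOT day 7 there were 7 calls, against 86 higher and 10 lower of all 15697 genes. Without IOT day 21 there were 26, against 519 higher and 812 lower of 15533. In large nuclei alone 4 members were called, all among the 17, with a median of 0.68, against 79 higher and 30 lower of all 14119 genes. In small nuclei alone 17 were called, 16 of them shared, with a median of 0.74, against 167 higher and 77 lower of all 12061 genes. Calls were thus fewer in large nuclei among all genes too. The smallest adjusted p of the members was 0.0245.

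Among complex I genes Ndufb8, an accessory subunit of the membrane arm, differed most. Ndufb8 had 61.3 and 69 CPM in uninjured nuclei after Facial injury and Scratch lesions, against 4.67, 15, 4.54 and 11.8 CPM after IOT at days 2, 7, 21 and 75 (log2 difference 2.87 ± 0.434, SE, adjusted p = 0.0245, edgeR). The classes did not overlap, and Control 10x lay near the IOT libraries with 18.9 CPM, while Control Drop-seq was highest of all with 94.5 CPM. The 2 controls, both wild-type and uninjured, thus lay as far apart in Ndufb8 as libraries of different injury classes. The gene lies on chromosome 19 from 44548572 to 44555440 on the minus strand of mm10, and the annotated gene Gm20538 overlaps it on the same strand, so reads there cannot be assigned with certainty.

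Ndufs5, an accessory subunit on the intermembrane side, had 66.7 and 46.7 CPM after the minor injuries against 13.7, 22.4, 13 and 16.2 CPM after IOT (log2 difference 1.78 ± 0.25, adjusted p = 0.0245, edgeR). The classes did not overlap, and the controls had 21.8 CPM by 10x and 52 CPM by Drop-seq. Ndufa8, an accessory subunit of complex I, had 167 and 185 CPM against 33.4, 49.7, 79.7 and 62.1 CPM (1.64 ± 0.302, adjusted p = 0.0329), with 62.4 and 87.7 CPM in the controls. Ndufs8, a core subunit that carries iron-sulfur clusters, had 48.4 and 45.1 CPM against 10.2, 15.5, 23.6 and 20.7 CPM (1.41 ± 0.30, adjusted p = 0.0471). Both genes were also clear of overlap, with the IOT values of Ndufa8 and Ndufs8 highest at day 21. Ndufb11 (1.28), Ndufa6 (1.27), Ndufb6 (1.15), Ndufb9 (1.13) and Ndufa7 (1.11) completed the complex I genes that rose.

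The complex II genes showed no such difference past the test. Sdha had 223 and 163 CPM after Facial injury and Scratch lesions against 119, 93.9, 140 and 157 CPM after IOT (log2 difference 0.57, adjusted p = 0.565, edgeR). The lower minor injury library of Sdha lay just above IOT day 75. Sdhb and Sdhc had log2 differences of 0.58 and 0.27, and Sdhd, with 35.6 and 22.4 CPM against 19.7, 51.6, 37.4 and 16.4 CPM, had -0.11 and overlapped between classes.

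In complex III 3 small subunits rose. Uqcrb, a subunit near the ubiquinone site, had 141 and 153 CPM against 48.5, 43, 52.2 and 61.2 CPM (1.51 ± 0.223, adjusted p = 0.0245, edgeR). Its IOT values lay close together, and the controls had 77.8 CPM by 10x and 65 CPM by Drop-seq. Uqcr10 had 242 and 272 CPM against 73.6, 130, 66.6 and 107 CPM (1.45 ± 0.283, adjusted p = 0.0392), and Uqcrq had 276 and 347 CPM against 93.5, 168, 85.4 and 143 CPM (1.35 ± 0.3, adjusted p = 0.04998), with IOT day 7 the highest of the IOT values in both. The core proteins Uqcrc1 and Uqcrc2 did not pass, with 102 and 61.6 CPM against 49.2, 74.2, 86.3 and 57.6 CPM for Uqcrc1, whose classes overlapped.

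Complex IV gave the largest sums but 3 calls. Ndufa4 had 595 and 800 CPM after Facial injury and Scratch lesions against 181, 211, 195 and 358 CPM after IOT (1.55 ± 0.326, adjusted p = 0.0461, edgeR), with day 75 apart from the other IOT libraries and close to Control 10x (368 CPM). Cox5a had 350 and 362 CPM against 108, 166, 153 and 154 CPM (1.29 ± 0.228, adjusted p = 0.0294), and the control values of 227 and 304 CPM stood between the classes. Cox8a had 1010 and 889.5 CPM against 308, 496, 303 and 436 CPM (1.28 ± 0.266, adjusted p = 0.0439), with Control Drop-seq at 297 CPM. Cox6a1 had larger values still and narrowly missed, with 1041 and 1019 CPM against 211, 357, 196 and 516 CPM (1.67, adjusted p = 0.0517). Cox7c, with 213 and 216 CPM against 38.3, 133, 27.9 and 50.8 CPM (1.80, adjusted p = 0.075), spread widely among the IOT libraries. Not all complex IV genes stood apart: Cox6c had 162 and 185 CPM against 102, 244, 96.7 and 132 CPM, with IOT day 7 above both minor injuries.

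In ATP synthase Atp5j and Atp5g1 rose. Atp5j had 264 and 310 CPM against 79.2, 141, 124 and 71.1 CPM (1.48 ± 0.282, adjusted p = 0.0364, edgeR). Atp5g1 had 249 and 299 CPM against 83.2, 115, 124 and 114 CPM (1.33 ± 0.231, adjusted p = 0.0293). Its partner genes for the c subunit did not, and Atp5g2 ran low throughout, with 2.86 and 5.41 CPM against 6.31, 4.65, 3.74 and 10.7 CPM. Atp5b had 455 and 288 CPM against 146, 206, 225 and 228 CPM, clear of overlap but with a wide gap between the 2 minor injury libraries.

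**Figure D4:**
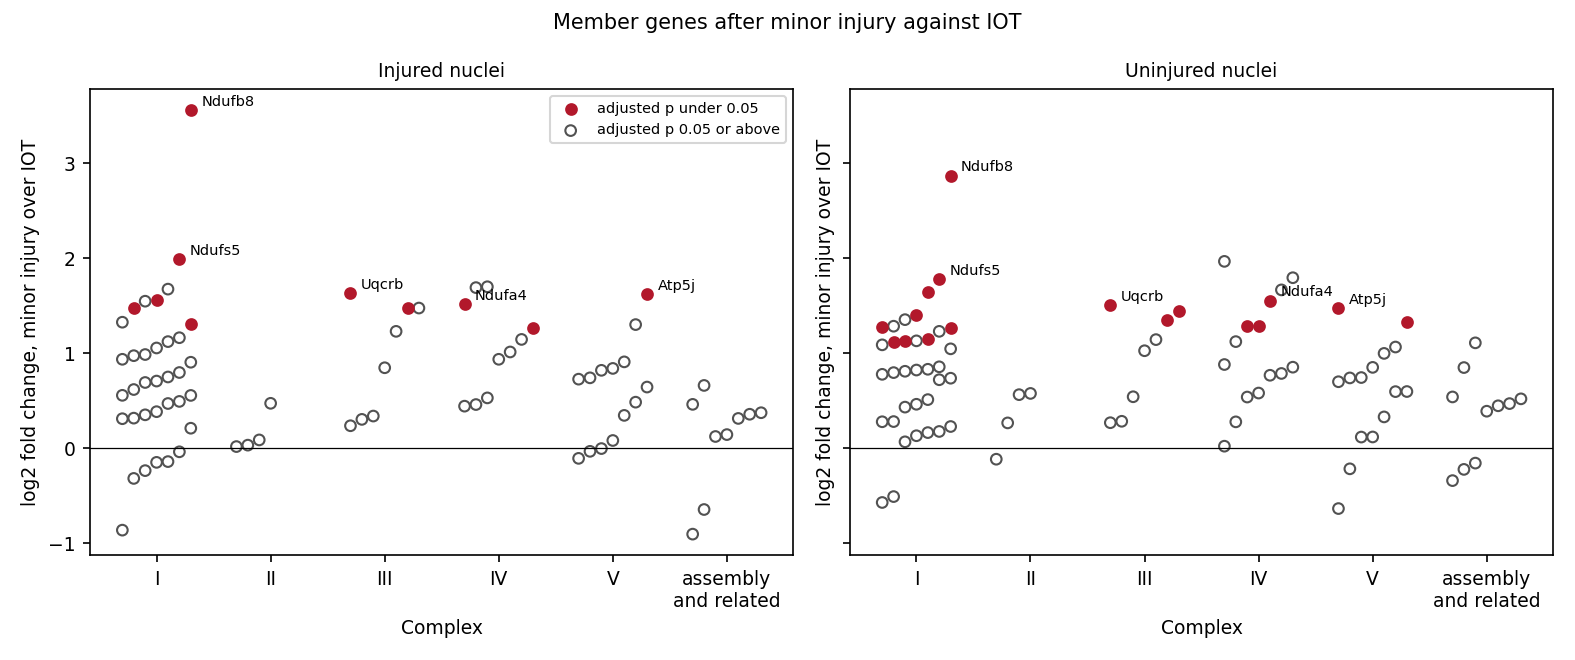
Log2 difference of minor injury over IOT for each tested member, by complex, in injured nuclei (left) and uninjured nuclei (right); filled points passed an adjusted p of 0.05. Most points lie above 0 in both panels, with medians of 0.63 and 0.77, and Ndufb8 is the highest in each at 3.56 and 2.87.

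In injured nuclei 10 of the 80 members tested were higher after minor injury than after IOT and 0 were lower (edgeR, adjusted p under 0.05), against 1.27% higher and 0.705% lower of all 8655 genes tested. The median was 0.63 over the members and -0.03 over all genes, and 44 members lay above all 4 IOT libraries in both minor injury libraries, against 21.2% of all genes, while 1 member lay below all 4, against 12.3% of all genes. The injured nuclei were divided differently between the 2 injured clusters. The Mmp16-high cluster held 45 and the Sprr1a-high cluster 87 after Facial injury, and 58 and 153 after Scratch lesions, against 451 and 126, 408 and 98, 214 and 35, and 87 and 8 after IOT at days 2, 7, 21 and 75. Over the 10x libraries the members summed to 4920 CPM in the Mmp16-high and 7958 CPM in the Sprr1a-high cluster, and within each cluster both minor injury libraries lay above all 4 IOT libraries. Of the 10 genes 9 were among the 17 of the uninjured nuclei; the other was Ndufb7 (1.48). Ndufb8 had 66.9 and 52 CPM against 2.71, 3.38, 4.31 and 9.82 CPM, from 22 and 33 UMIs against 7, 4, 4 and 5 UMIs (3.56 ± 0.457, adjusted p = 0.0176). Ndufs5 had 88.2 and 44.1 CPM against 10.1, 16.9, 10.8 and 19.6 CPM (1.99). The remaining log2 differences ran from 1.26 for Cox8a to 1.63 for Uqcrb. Leaving out IOT day 2 left 0 calls here too, but all 7830 genes tested then had only 2 higher and 2 lower. Leaving out IOT day 7 left 5, against 53 higher and 24 lower of 7779 genes. Leaving out IOT day 21 left 18, against 313 higher and 351 lower of 7820 genes. Fits without Facial injury or Scratch lesions hold 1 minor injury library, so their counts are not read. With any 1 library left out the median log2 difference of the members was 0.52 to 0.75. DESeq2 called 17 members higher, against 184 higher and 231 lower of all 8655 genes. The Mmp16-high cluster alone gave 0 calls, as it did among all 8040 genes tested. For the Sprr1a-high cluster alone it was 2, against 40 higher and 60 lower of 4209 genes.

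Other parts of energy metabolism stood higher after minor injury with few calls. All 17 glycolysis genes had positive log2 differences in uninjured nuclei (median 0.77), 1 of which passed: the enolase gene Eno1 at 2.37. The 9 genes for cytochrome c and carriers were all positive too (median 0.77), and Cycs, which encodes cytochrome c, passed at 1.30. None of 13 citric acid cycle genes passed (median 0.49). Of 33 further assembly factors 5 were higher and 1 lower (median 0.22), with Cox17, a copper chaperone for complex IV, at 3.15 and Atpaf2, an ATP synthase assembly factor, at -1.61. The mitochondrially encoded genes had 0 of 12 called, a median of 0.02 and sums that overlapped, with 3286 and 760 CPM after the minor injuries against 1192, 1971, 2356 and 2093 CPM after IOT. Regulators of mitochondrial biogenesis had 0 of 11 called and lower sums, with 351 and 358 CPM against 402 to 441 CPM.

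Gene length and kind of gene also moved with the injury class, while readings of RNA from outside the nucleus were mixed. Among other protein-coding genes the median log2 difference of minor injury over IOT in uninjured nuclei was 0.51 for spans under 5 kb, 0.35 for 5 to 10 kb, 0.17 for 10 to 30 kb, -0.11 for 30 to 100 kb and -0.31 for 100 kb and over. Up to 30 kb the members followed the same order at higher values, with 1.14 for the 27 under 5 kb, 0.85 for the 27 of 5 to 10 kb and 0.45 for the 25 of 10 to 30 kb. The few longer members did not keep to it, with 0.17 for the 3 of 30 to 100 kb and 0.49 for the 4 of 100 kb and over. Of 441 processed pseudogenes, which are intronless copies of spliced transcripts, 10.7% were higher after minor injury (median 0.41). The -ps copies of the members were split. Their sum, 13.2 and 11.6 CPM in all nuclei after the minor injuries against 22.4, 47.8, 7.55 and 11.8 CPM after IOT, overlapped, while Uqcrh-ps1 and Ndufab1-ps stood higher in both minor injury libraries. Ribosomal protein genes, also short, had 3 of 72 higher (median 0.17). As a reading of free RNA, mRNAs typical of small neurons were followed into large nuclei, where Calca, Tac1, Mrgprd, Trpm8, Nppb and Sst summed to 1130 and 818 CPM after the minor injuries against 404, 420, 414 and 579 CPM after IOT. Most of this was Calca, the CGRP gene, with 667 and 520 CPM against 146, 136, 134 and 284 CPM in large nuclei, and 1360 and 1420 CPM against 420, 606, 769 and 553 CPM in small nuclei. Mrgprd, a receptor of nonpeptidergic nociceptors, stayed low in large nuclei, with 2.54 and 8.99 CPM against 1.13, 2.18, 0.61 and 3.44 CPM, and its classes overlapped. Tac1 stood above all 4 IOT libraries in large nuclei, with 374 and 197 CPM against 118, 181, 169 and 180 CPM. Trpm8 went the other way and lay below all 4, with 83.7 and 89.3 CPM against 138, 99.7, 107 and 109 CPM. Nppb and Sst overlapped between classes. The sum is no pure measure of free RNA, since some Calca and Trpm8 neurons fall in the large class themselves. Satellite glia markers summed to 971 and 702 CPM against 382, 377, 498 and 791 CPM and overlapped, and the minor injury libraries had lower median depths (1928 and 2303 UMIs) than 3 of the 4 IOT libraries. The part of these measures in the result was not tested, and library and injury class cannot be told apart, nor can strain and injury in Scratch lesions, while the Facial injury, IOT and control mice were all C57BL.

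The stretch before the gene start was read for the members because they moved together. NCBI RefSeq start sites in the GRCm38.p6 build gave windows of 300 bases (250 before the start and 50 after) for 71 of the 87 genes. A set of 3 short motifs was searched on both strands: GCGCATGC for NRF1 (GCATGCGC on the other strand), CCGGAAGT for ETS factors (ACTTCCGG) and AAGATGGCG for YY1 (CGCCATCTT), factors known to bind before respiratory chain genes. NRF1 letters were found for 12 members (16.9%, against 3.05% of 27025 genes), ETS letters for 5 (7.04% against 4.31%) and YY1 letters for 7 (9.86% against 1.64%). Any of the 3 was present for 32.4% of the members against 8.47% of genes. Member windows were also richer in G and C (median 57.5% against 52.7%) and in CpG (19.5 against 7 per window). Of the genes higher in uninjured nuclei after minor injury 4 of 14 with a window had a match (28.6%), against 19 of 57 other members (33.3%).

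The 250 bases before the start are printed for 6 genes, 5′ to 3′ on the gene's strand, with motif letters in capitals and all else in lower case. The 6 were picked without a rule from genes called in the comparisons. Their share with a motif does not stand for that of the members, which was 32.4%. Ndufa8 and Ndufa6 hold NRF1 letters, Atp5j YY1 letters before 1 of its 2 RefSeq starts and Uqcr11 ETS letters, whereas Ndufb8 and Cox5a hold none of the 3.
Ndufb8, chr19:44555443-44555692, minus strand: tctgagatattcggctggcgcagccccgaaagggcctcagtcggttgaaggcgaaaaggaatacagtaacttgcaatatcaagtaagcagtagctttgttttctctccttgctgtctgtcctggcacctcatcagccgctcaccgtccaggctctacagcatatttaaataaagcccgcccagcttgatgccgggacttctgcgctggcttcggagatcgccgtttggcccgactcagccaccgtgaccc
Ndufa8, chr2:36049339-36049588, minus strand: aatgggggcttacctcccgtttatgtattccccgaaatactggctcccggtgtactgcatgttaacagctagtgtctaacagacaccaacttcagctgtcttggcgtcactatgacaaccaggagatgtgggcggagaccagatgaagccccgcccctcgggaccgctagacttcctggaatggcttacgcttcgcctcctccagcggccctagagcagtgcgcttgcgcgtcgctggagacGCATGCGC
Ndufa6, chr15:82354292-82354541, minus strand: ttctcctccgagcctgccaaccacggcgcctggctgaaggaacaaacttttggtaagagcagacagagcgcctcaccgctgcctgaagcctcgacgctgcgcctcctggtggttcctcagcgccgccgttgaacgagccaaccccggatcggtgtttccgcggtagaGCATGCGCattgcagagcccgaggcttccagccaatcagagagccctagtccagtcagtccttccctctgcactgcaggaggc
Atp5j, chr16:84834977-84835226, minus strand: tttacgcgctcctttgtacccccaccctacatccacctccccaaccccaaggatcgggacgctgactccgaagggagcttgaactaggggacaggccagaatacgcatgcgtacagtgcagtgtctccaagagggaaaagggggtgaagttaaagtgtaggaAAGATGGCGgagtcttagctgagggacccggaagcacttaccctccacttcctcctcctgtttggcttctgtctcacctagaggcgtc
Uqcr11, chr10:80406822-80407071, minus strand: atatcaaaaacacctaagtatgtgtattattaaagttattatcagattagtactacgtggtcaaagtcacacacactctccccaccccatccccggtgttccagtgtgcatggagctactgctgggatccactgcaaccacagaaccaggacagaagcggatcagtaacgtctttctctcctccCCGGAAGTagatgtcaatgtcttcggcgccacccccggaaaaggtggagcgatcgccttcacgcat
Cox5a, chr9:57520982-57521231, plus strand: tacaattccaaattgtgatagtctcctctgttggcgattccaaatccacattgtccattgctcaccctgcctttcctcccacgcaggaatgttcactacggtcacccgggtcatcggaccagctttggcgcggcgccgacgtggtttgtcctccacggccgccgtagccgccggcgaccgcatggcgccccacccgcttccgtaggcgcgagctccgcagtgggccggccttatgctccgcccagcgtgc
Ndufb8, which differed most between the injury classes, and Cox5a, which differed most between the sizes, thus both lack the letters searched, and Ndufa8 carries them at the very end of its stretch.

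The difference between injury classes was also read cluster by cluster. All clusters draw on the same libraries, so they repeat the same comparison and are not replicates of an injury class. In 23 of 23 uninjured clusters with at least 20 nuclei in each injury library, the summed member level of both minor injury libraries lay above all 4 IOT libraries. Of the 3 uninjured clusters with fewer nuclei, cluster 20 departed from this: its 7 nuclei after Facial injury had 16100 CPM and its nuclei after Scratch lesions 25430 CPM, against 14290, 17380, 15830 and 15230 CPM after IOT. Clusters differed among themselves as well, from 5083 to 19250 CPM over the 10x libraries. The 17 clusters with more Nefh than Scn10a UMIs spanned 5083 to 19250 CPM with a median of 8184 CPM, and the 9 with more Scn10a spanned 6914 to 9576 CPM with a median of 8500 CPM, and the medians of the 2 kinds of cluster lay close together.

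The highest level belonged to cluster 20, with 707 nuclei, 19250 CPM of member RNA and much Nefh (2916 CPM) and S100b (1639 CPM). Its level was 1.33 to 3.46 times that of the other uninjured nuclei in the 7 10x libraries, but Apoe, which glia make, stood at 882.5 CPM in it, and Facial injury gave 7 of its nuclei. Cluster 1, marked by the cold receptor gene Trpm8 (927.8 CPM), came next with 11420 CPM and lay above the other nuclei in 7 of 7 libraries, by 1.29 to 1.5 times. Cluster 9, with Ntrk3 (1539 CPM) and Pvalb (263.3 CPM), genes of mechanosensory or proprioceptive neurons, had 10660 CPM and was 1.17 to 1.61 times the others. Cluster 15 was lowest at 5083 CPM, 0.452 to 0.713 times the other nuclei, and was below them in each library. Leaving out cluster 20 changed the count of members higher after minor injury to 23, against 320 of all 15463 genes. That of members higher in large nuclei became 72, against 3450 of 12725.

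**Figure D5:**
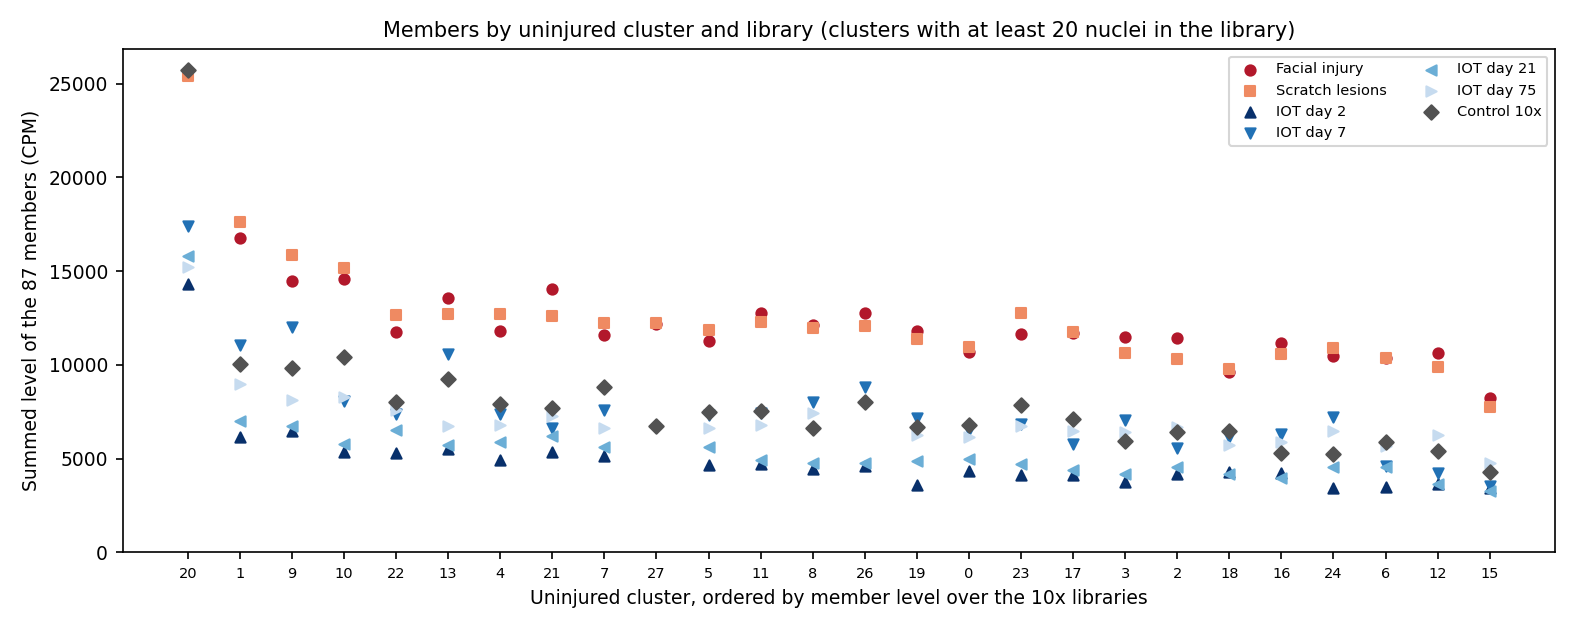
Summed level of the 87 members in each of the 26 uninjured clusters, in CPM, with 1 point for each library that gave at least 20 nuclei. The points of the 2 minor injury libraries lie above those of the 4 IOT libraries in every cluster where all 6 are present, and cluster 20 stands highest.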

How the data were processed

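Nuclei of mouse trigeminal ganglia were profiled in 11 samples that fill 8 tables. Per the labels and the study's methods, ganglia were kept in RNAlater, frozen and homogenized, and nuclei were enriched with an anti-NeuN antibody before 10x or Drop-seq libraries were made. The authors aligned reads to the mm10 genome, counted intronic reads as well, and removed nuclei of low quality and non-neuronal clusters. The submitters' processing notes list Seurat 2, STAR 2.5.3a, Cell Ranger 2.1.0 and bcl2fastq 2.17; the annotation version and the use of strand are not given in the sources used here. The deposited tables give, for each nucleus, the UMI count of each gene as the authors counted it, with no scaling. Introns were counted, so unspliced RNA enters each value, and reads of overlapping genes can be split between them.

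Counts were summed over the injured, uninjured, large and small nuclei of each library, and divided by all UMIs of those nuclei to give CPM. Nuclei were clustered over the 14905 genes in all 8 tables, with 371 genes withheld. These were the members, the listed genes, the injury markers, and the ribosomal protein and mitochondrially encoded genes. Clustering used 2000 variable genes and 30 principal components with 20 neighbors (Leiden algorithm, resolution 1, leidenalg 0.10.2, scikit-learn 1.9.0). No doublet caller was run. Sums were tested gene by gene with the quasi-likelihood test of edgeR 4.0.16 (TMM scaling, filterByExpr, Benjamini-Hochberg adjustment, threshold 0.05) in R 4.3.3. The size test left out Nefh and Scn10a, and every other test left out the 2000 variable genes used for clustering. Counts and shares over all genes cover the genes that remained. State and size were compared with library as a block (4 and 6 residual degrees of freedom), and minor injury with IOT between libraries (4 residual degrees of freedom); Control 10x was in that fit with its own mean. Values of Control Drop-seq are shown but entered no main test. DESeq2 1.42.0, other scaling and filters, each library left out in turn, depth and glial or mitochondrial RNA limits, other cluster resolutions and other size rules were tried. Restriction to 1 injured cluster or 1 size class, and leaving out the cluster highest in member RNA, were chosen after seeing the data. The members and lists were chosen with earlier results of these data known. Each fit was tested on simulated data. Exact Poisson intervals for summed counts and exact binomial intervals for shares cover counting error only.

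Genes were named by rule: the 10 highest in Control 10x, in each test the 10 with the largest rises and the 10 with the largest falls past the threshold, isoform families, the 4 Sdh genes, genes at the 50 UMI limit, and in other lists up to 4 genes with the largest change. Ndufa7, Ndufb6, Ndufb9, Ndufb11, Ndufa6, Cox5a, Cox8a, Uqcrc1, Cox6c, Cox7c, Atp5b and Ndufaf7 were also named in comparisons where the rule did not take them, after their values were seen. An item withheld for evaluation is not reported here by name. Gene positions came from GENCODE vM21 and sequences from NCBI RefSeq (GRCm38.p6). Of the members 86 of 87 were matched, 11 with another gene overlapping on the same strand. Python 3.11.15 with numpy 2.4.6, scipy 1.17.1, pandas 2.3.3 and matplotlib 3.10.9 was used.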

Additional observations from a re-analysis of the deposited data

Results flagged for a closer look

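A check for single libraries far from the rest of their group was run on 107 sets of values of the named members, and chance alone gives about 1 in 20. It found 2. Ndufa4, the complex IV subunit, had 358 CPM in uninjured nuclei at IOT day 75, far above its level in the other 3 IOT libraries (181, 211 and 195 CPM) and close to Control 10x. Ndufc2, an accessory subunit of complex I, had a log2 ratio of large over small nuclei of 0.74 in Control 10x, apart from the other 6 10x libraries.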

How the results depend on the processing

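Values here are members called, and calls among all genes moved with the setting as well. For injured against uninjured nuclei after IOT these were 2087 higher and 1746 lower of 14159 in the main fit. They were 1586 and 958 with DESeq2, 1599 and 2540 without TMM scaling, and 505 and 299 without the library as a block. For injured against uninjured nuclei after IOT (16 called) the count was 5 with DESeq2, 29 without TMM scaling, 6 with nuclei of 2000 to 6000 UMIs, 6 with nuclei low in mitochondrially encoded UMIs, 0 with injured nuclei set by 3 of 10 markers, 0 without the library as a block, 3 with the Sprr1a-high cluster only and 9 without the cluster highest in member RNA, and 5 to 16 with 1 library left out. With 3 of 10 markers, a rule that also took in 542 nuclei of Control 10x, Ndufb3 (0.02), Ndufb11 (0.04) and Ndufv2 (0.04) changed sign on the log2 scale. For the same contrast after minor injury (0 called) it was 6 without the filter on low counts, 1 with nuclei of 2000 to 6000 UMIs, with nuclei low in glial UMIs, with resolution 2, with 3 of 10 markers and with the Sprr1a-high cluster only, and 0 to 5 with 1 library left out. The difference of these effects gave 0 under all 18 alternatives. For minor injury against IOT in uninjured nuclei (17 called) it was 33 with DESeq2, 26 with nuclei low in mitochondrially encoded UMIs, 4 in large nuclei and 0 to 26 with 1 library left out, and the median log2 difference stayed between 0.61 and 0.88. In injured nuclei (10 called) it was 17 with DESeq2, 18 without TMM scaling, 19 without the filter, 17 with nuclei low in mitochondrially encoded UMIs, 4 with 3 of 10 markers, 0 with the Mmp16-high cluster, 2 with the Sprr1a-high cluster and 0 to 18 with 1 library left out, with medians of 0.38 to 1.09. For large against small nuclei (73 called) it was 45 with nuclei low in mitochondrially encoded UMIs and 10 without the library as a block, and 68 to 75 under the other alternatives. Among all genes, minor injury against IOT in uninjured nuclei gave 252 higher and 135 lower of 15481, but 631 and 982 with DESeq2. Injured nuclei gave 110 and 61 of 8655, but 184 and 231 with DESeq2 and 231 and 78 without TMM scaling. Large against small nuclei gave 3270 and 3190 of 12721, but 1368 and 1403 without the library as a block. The cause of these changes was not tested, save that fits with 1 minor injury library assume that it varies like the others. Between injury classes no paired analysis was possible because the groups compared share fewer than 2 replicate numbers. States and sizes were paired within each library by the library block. The number of libraries limits every comparison between injury classes, and few injured nuclei limit the injured state after minor injury.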

Other observations

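Rows with -ps in the symbol, left out of the members, were counted for 7 copies of member genes. Atp5k-ps2 had 4.64 and 5.62 CPM after Facial injury and Scratch lesions against 17.1, 32.7, 5.35 and 9.83 CPM after IOT at days 2, 7, 21 and 75, and 17.0 CPM in Control 10x. Uqcrh-ps1 had 5.45 and 3.93 CPM against 2.1, 3.5, 0.44 and 1.27 CPM, higher in both minor injury libraries, and Ndufab1-ps had 1.23 and 0.685 CPM and was not listed in the 4 IOT tables. The Drop-seq table listed none of the 7.

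In the 2 injured clusters the members differed by library more than by cluster. The Mmp16-high cluster summed to 11950 CPM after Facial injury and 10680 CPM after Scratch lesions, against 3567, 4531, 5026 and 6552 CPM after IOT at days 2, 7, 21 and 75. The Sprr1a-high cluster summed to 10870 and 10340 CPM against 4648, 8539, 6612 and 8164 CPM, the last from 8 nuclei.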
